A study of Mus musculus with 8 samples.

Results

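Sbsn, Dmkn and Krtdap encode suprabasin, dermokine and keratinocyte differentiation associated protein, 3 secreted proteins of the epidermis whose genes lie side by side on mouse chromosome 7. They are 3 of the 18194 genes measured here, read by 5 of 45101 probe sets: 3 for Sbsn and 1 each for Dmkn and Krtdap. They were chosen by their log2 ratios of doxycycline (Dox)-treated over Dox-untreated signal in cells without forced Nanog or Esrrb, which were among the highest of all genes, so their ratios in those cells are given as a description and are not tested. The cells, called NS tet-off ESCs, were a male mouse embryonic stem cell line of 129sv background in which both copies of the nucleostemin (NS) gene are disrupted and an NS cDNA at the ROSA26 locus is switched off by Dox. Each of 4 backgrounds gave 1 array of Dox-treated cells (6 days) and 1 array of Dox-untreated cells, 8 arrays in all. The backgrounds were cells that overexpressed Nanog, cells that overexpressed Esrrb, empty vector-bearing cells in the 2i condition (inhibitors of the kinases MEK and GSK-3) and empty vector-bearing cells in standard medium with LIF and serum. They are called the Nanog, Esrrb, 2i and empty vector pairs. All cells thus derive from 1 engineered line, the untreated controls carry the same disruption and transgene, the factors came from stably integrated vectors, and no condition has a replicate.

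In skin, stem-like keratinocytes of the basal layer stop dividing, move outwards and build a barrier of keratin filaments, crosslinked envelope proteins and lipids. Suprabasin and keratinocyte differentiation associated protein appear as the cells leave the basal layer, and dermokine is made by the uppermost living layers. Dermokine comes in several isoforms, made from more than 1 transcription start. Undifferentiated ESCs are not known for any of these proteins.

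The sequences next to the gene starts are shown because the genes are neighbours and all were higher after Dox in the empty vector and 2i pairs. All 3 genes matched the RefSeq promoter table (build GRCm38.p6), which gives 250 bases before and 50 after each start and holds 1 window for Sbsn, 3 for Dmkn and 1 for Krtdap. The first 2 windows of Dmkn overlap almost wholly, so only the first and the third, which belongs to an internal start, are printed. Capitals mark matches to TGANTCA, a loose form of the motif of AP-1, the dimer of Jun and Fos family proteins. This form allows any base at the centre.
Sbsn, chr7:30751221-30751520, strand +: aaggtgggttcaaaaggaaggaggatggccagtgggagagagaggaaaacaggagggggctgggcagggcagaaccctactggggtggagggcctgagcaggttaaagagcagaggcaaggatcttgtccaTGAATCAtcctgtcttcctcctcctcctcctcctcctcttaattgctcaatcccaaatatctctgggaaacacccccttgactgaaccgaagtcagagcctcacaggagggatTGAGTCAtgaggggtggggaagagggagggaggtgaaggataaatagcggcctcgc
Dmkn, upstream start, chr7:30763506-30763805, strand +: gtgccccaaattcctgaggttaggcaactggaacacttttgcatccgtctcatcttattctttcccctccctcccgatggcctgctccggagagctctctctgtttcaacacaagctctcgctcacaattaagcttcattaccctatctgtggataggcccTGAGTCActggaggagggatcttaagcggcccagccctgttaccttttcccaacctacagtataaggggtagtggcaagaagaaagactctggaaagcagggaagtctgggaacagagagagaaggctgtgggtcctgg
Dmkn, internal start, chr7:30776155-30776454, strand +: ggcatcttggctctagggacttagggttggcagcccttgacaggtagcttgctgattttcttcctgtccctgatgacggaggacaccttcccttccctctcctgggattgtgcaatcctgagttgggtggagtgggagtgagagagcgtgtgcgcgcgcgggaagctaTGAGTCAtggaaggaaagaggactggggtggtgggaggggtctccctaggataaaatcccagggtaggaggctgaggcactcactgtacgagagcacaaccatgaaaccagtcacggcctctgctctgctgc
Krtdap, chr7:30787655-30787954, strand +: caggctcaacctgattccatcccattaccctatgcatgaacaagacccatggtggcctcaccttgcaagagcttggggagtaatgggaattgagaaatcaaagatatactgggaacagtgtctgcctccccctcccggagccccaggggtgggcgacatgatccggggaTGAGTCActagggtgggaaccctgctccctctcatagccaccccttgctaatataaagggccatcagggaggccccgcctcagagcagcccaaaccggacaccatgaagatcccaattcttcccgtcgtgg

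The motif TGANTCA reads the same on both strands. It was present in 5 of 5 windows of the 3 genes, against 7.81% of 32851 windows of the same length from all genes, and in 3 of 3 genes, against 8.97% of 27025 genes with any window. The overlapping windows of Dmkn hold the same match, so these windows are not independent. The motifs were also chosen with the high ratio of Jun in these data known. In Dmkn the match began 89 bases before the upstream start and 82 bases before the internal start, and in Krtdap 81 bases before the start. Sbsn held 2 matches, TGAATCA and TGAGTCA, which began 119 and 6 bases before the start. The matches in Dmkn and Krtdap all read TGAGTCA. Other motifs were searched on both strands. The motif of TEAD factors, GGAATG, had 0 matches in these windows, against 14.7% of all windows. The motif of STAT factors, TTCNNNGAA, had 0, against 8.30%. The motif of GATA factors, AGATAA, had 0, against 11.2%. The box TATAAA, at which the general transcription machinery can assemble, was found in Krtdap, 30 bases before the start, and in 13.6% of all windows. A match describes the letters only, and whether a protein binds there was not measured.

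The labels were checked on genes outside the cluster before the values were compared. Gnl3, which encodes NS, kept 4.25%, 3.13%, 2.17% and 1.95% of its linear signal after Dox in the Nanog, Esrrb, 2i and empty vector pairs. Dusp6 and Spry4, which Erk signalling induces, stood at log2 signals of 7.63 and 4.07 on the 2i Dox-treated array, against 11.40 and 9.17 on the empty vector Dox-treated array. On the 2i Dox-untreated array they stood at 10.95 and 9.92, against 10.97 and 10.17 on the empty vector Dox-untreated array, so that the 2i label of that array was not borne out by these genes. For the 3 genes the 2i ratio is therefore given also with the empty vector Dox-untreated array in its place, while the 2i ratios of other genes rest on the 2i Dox-untreated array. With that replacement, chosen after seeing the data for the counts and ranks, Krtdap, Dmkn and Sbsn ranked 1, 4 and 21 among all genes by 2i ratio, and 5.99% of all genes were over 2-fold higher. Whether the inhibitors were present in the culture of the 2i Dox-untreated array is not known here. If they were absent, each 2i ratio holds their effect together with that of Dox. These effects cannot be told apart with either Dox-untreated array as reference.

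Sbsn was the gene with the highest ratio of all in the empty vector pair and stayed far lower with forced Nanog or Esrrb. On its probe set 1439630_x_at, which represents the gene here because its mean signal was the highest, the log2 signal was 7.07 on the Dox-treated and 6.20 on the Dox-untreated array of Nanog-overexpressing cells. It was 7.33 and 6.28 with forced Esrrb, 9.97 and 6.53 in the 2i condition, and 11.28 and 5.79 with an empty vector. The 4 Dox-treated arrays all lay above the highest Dox-untreated array, the empty vector one farthest. The log2 ratio after Dox was 0.87 for Nanog, 1.05 for Esrrb, 3.44 for 2i (10.9-fold) and 5.49 for the empty vector (44.8-fold). Against the empty vector Dox-untreated array the 2i ratio was 4.18.

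The other probe sets of Sbsn also placed the empty vector array highest and the 2i array next after Dox, on different scales. Probe set 1459897_a_at gave log2 ratios of 1.12 for Nanog, 1.45 for Esrrb, 3.71 for 2i and 5.80 for the empty vector. On 1459898_at the Dox-treated and Dox-untreated signals were 4.43 and 4.38 for Nanog, 4.36 and 4.02 for Esrrb, 5.83 and 4.49 for 2i, and 6.90 and 4.31 for the empty vector. Its ratios were 0.04, 0.34, 1.34 and 2.59, so on this probe set the Dox-treated Nanog and Esrrb arrays lay within the range of the Dox-untreated arrays. Across the 8 arrays 1459897_a_at correlated with 1439630_x_at at r = 0.999 and 1459898_at at r = 0.965, as a description of the same arrays.

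Dmkn was higher to nearly the same extent in the 2i and empty vector pairs. Its only probe set, 1428781_at, had a log2 signal of 4.30 on the Dox-treated and 3.68 on the Dox-untreated array of Nanog-overexpressing cells, and of 5.20 and 4.84 with forced Esrrb. The signals were 9.20 and 4.56 in the 2i condition and 8.46 and 3.79 with an empty vector. The Dox-treated 2i and empty vector arrays stood apart from the other 6, whereas the Dox-treated Nanog array lay inside the range of the Dox-untreated arrays, from 3.68 to 4.84. The log2 ratios were 0.63 for Nanog, 0.36 for Esrrb, 4.64 for 2i (25.0-fold) and 4.67 for the empty vector (25.5-fold). Taken against the Dox-untreated array of the empty vector pair, the 2i ratio was 5.40. Which dermokine isoforms the probe set reads is not known here.

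Krtdap differed from the other genes in that both pairs with a forced factor had ratios below 0. Its 2i ratio lay well above its empty vector ratio. For Dmkn that order held only against the empty vector Dox-untreated array, with 5.40 beside 4.67. The only probe set of Krtdap, 1434227_at, had a log2 signal of 5.14 on the Dox-treated and 5.40 on the Dox-untreated array with forced Nanog, and of 4.39 and 5.25 with forced Esrrb. In the 2i condition the signals were 10.16 and 4.31, and with an empty vector 7.17 and 4.23. The ratios were -0.26 for Nanog, -0.86 for Esrrb, 5.85 for 2i (57.8-fold) and 2.94 for the empty vector (7.69-fold), and the 2i ratio was 5.93 against the empty vector Dox-untreated array. Ratios above 0 in both pairs without a forced factor and below 0 in both with one were seen in 5.41% of all genes. Before Dox, Krtdap was also higher with a forced factor, by 1.17 with Nanog and 1.02 with Esrrb relative to the empty vector, while the 2i Dox-untreated array differed from the empty vector one by 0.08.

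**Figure D1:**
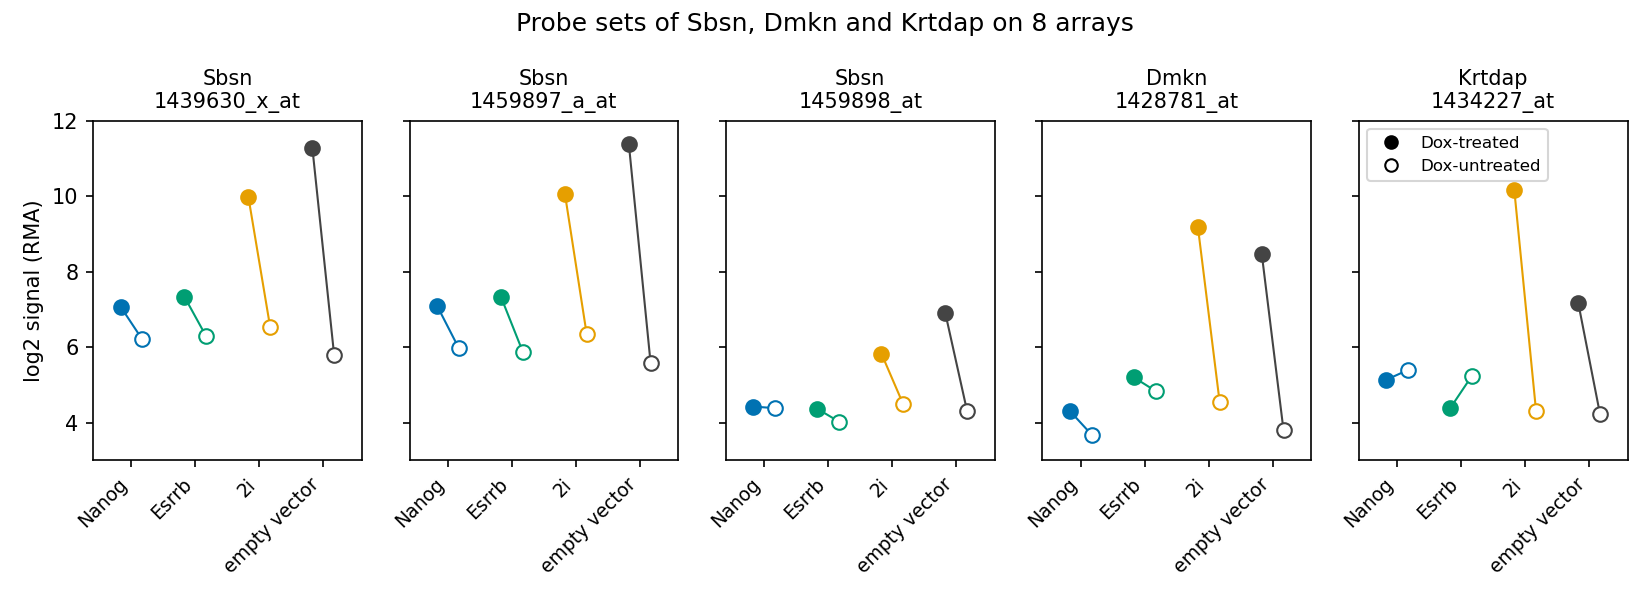
Log2 signal (vertical axis) of the 5 probe sets on the 8 arrays, by background (horizontal axis), with filled circles for Dox-treated and open circles for Dox-untreated cells, 1 array each, joined within a pair. The Dox-treated 2i and empty vector circles stand highest on every probe set, with 2i above empty vector for Dmkn and Krtdap and below it for Sbsn.

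The 3 genes thus shared a pattern but not an order. Over 2-fold higher after Dox (a log2 ratio above 1) were 0 of the 3 genes in the Nanog pair, against 1.13% of all genes, and 1, Sbsn, in the Esrrb pair, against 1.06%. Sbsn was just past that line, and with the mean of its probe sets its Esrrb ratio of 0.95 was not. In the 2i and in the empty vector pair all 3 were, against 4.81% and 5.36% of all genes, and both together held for 2.78%. The choice of the genes fixed that count. None of the 3 was over 2-fold lower in any pair, against 1.17%, 0.967%, 3.10% and 3.85% of all genes in the Nanog, Esrrb, 2i and empty vector pairs. For all 3 the 2i and empty vector ratios both exceeded the Nanog and Esrrb ratios, as for 24.1% of all genes. Among 18194 genes ranked from the highest ratio, Krtdap, Dmkn and Sbsn stood at ranks 1, 3 and 30 for 2i and at ranks 81, 8 and 1 for the empty vector. On the Dox-treated arrays themselves, the 2i array exceeded the empty vector array by 2.99 for Krtdap (7.94-fold) and by 0.73 for Dmkn, and lay below it for Sbsn by 1.30 to 1.32 on the brighter probe sets and by 1.07 on 1459898_at. No replicate spread is available against which to set these differences. Across the 8 arrays the probe set of Dmkn correlated with that of Sbsn at r = 0.946 and with that of Krtdap at r = 0.888, and Sbsn with Krtdap at r = 0.779. In each case the 2 Dox-treated arrays without a forced factor lie apart from the other 6.

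**Figure D2:**
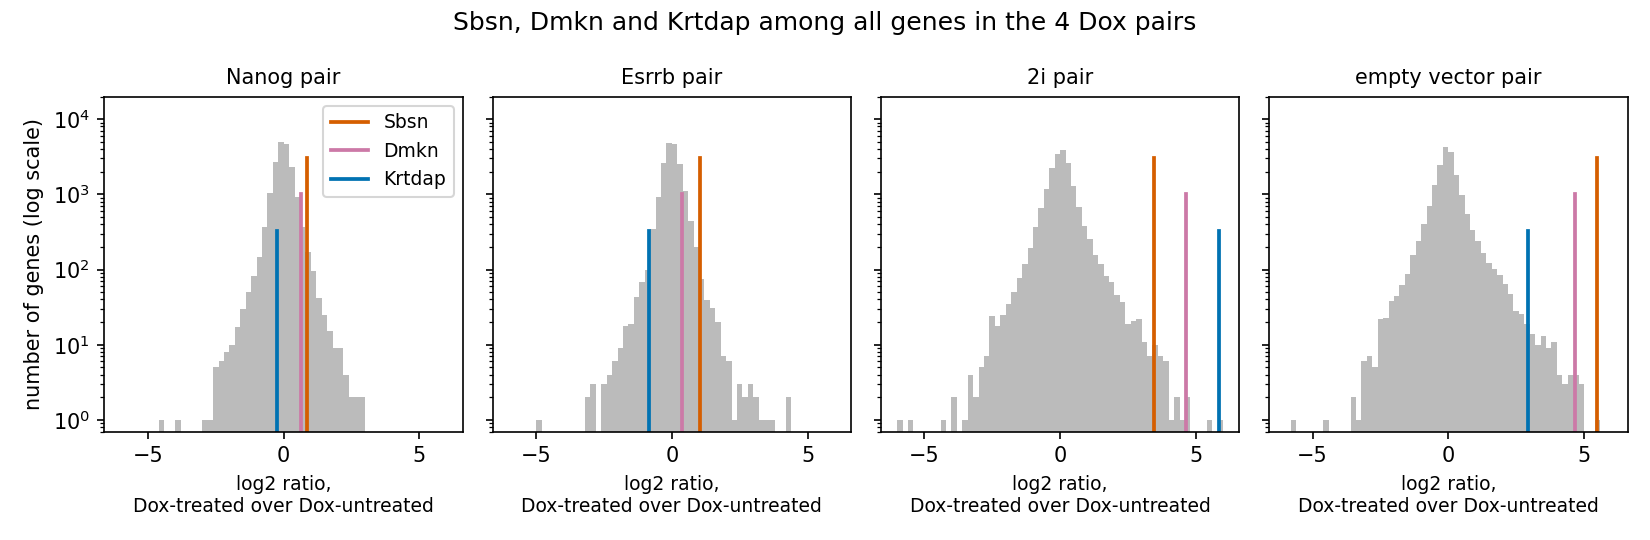
Histograms of the log2 ratio after Dox (horizontal axis, bins of 0.2) over all genes in each pair, with gene counts on a log scale (vertical axis) and coloured lines at the ratios of Sbsn, Dmkn and Krtdap, whose heights carry no value. The lines lie between -0.86 and 1.05 in the Nanog and Esrrb pairs and between 2.94 and 5.85 in the 2i and empty vector pairs.

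The Nanog and Esrrb pairs were not used to choose the genes, and the Dox response common to both was tested with limma over all genes, with the background as a block and the pairs taken as replicates. Sbsn rose by 0.96 on the log2 scale (standard error 0.144, adjusted p = 0.00116 from limma, higher in 2 of 2 pairs). The test called 8.49% of all genes as higher and 7.52% as lower, so a call is common here. Dmkn did not pass, with 0.49 (standard error 0.157, adjusted p = 0.0546 from limma, higher in both pairs). Neither did Krtdap, with -0.56, a lower signal in both pairs (standard error 0.179, adjusted p = 0.0551 from limma). When every probe set was tested, 1459897_a_at of Sbsn rose by 1.29 (standard error 0.152, adjusted p = 4.41e-05 from limma), 1459898_at did not pass (0.19, standard error 0.164, adjusted p = 0.524 from limma), and Krtdap passed with an adjusted p of 0.0484 from limma. With all 8 arrays in the fit, in which the distance between the 2i and empty vector ratios also enters the spread, the adjusted p of Sbsn was 0.343 from limma and 167 rather than 2914 genes passed. With 1 residual degree of freedom the spread is borrowed mainly from other genes, and since nothing says that these arrays stem from separate cultures, p-values measure only the difference between the pairs.

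The genes most like each of the 3 over the 8 arrays were sought among 1048 genes whose log2 signal spanned at least 2. For Sbsn they were Rgs12, Slc25a17, Msrb1, Ccn2, Plod2, Emp3, Mdm2 and Vwce, at r from 0.982 to 0.989. Ccn2, which encodes a secreted matricellular protein, had log2 ratios of 0.93 for Nanog, 0.88 for Esrrb, 2.71 for 2i and 3.05 for the empty vector. Mdm2, the ubiquitin ligase of p53, had 0.37, 0.42, 1.54 and 2.21 in the same order. Emp3, an epithelial membrane protein gene, had 1.21, 1.10, 2.29 and 3.98. Being chosen for likeness to Sbsn, these genes share its pattern by construction.

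For Dmkn the most alike were Btla, Cemip, Hspb2, Tnfaip6, Inka2, Mlana, Gnal and Cited1, at r from 0.972 to 0.984. Mlana, a melanosome protein gene, had ratios of 0.96, 1.46, 4.35 and 3.77 in the Nanog, Esrrb, 2i and empty vector pairs. Cemip, a gene of hyaluronan breakdown, had 0.38, 0.14, 3.31 and 2.77, and Tnfaip6, whose product binds hyaluronan, had 0.96, 0.63, 2.22 and 2.89. For Krtdap they were Gpnmb, Gpx6, Plat, Rgs5, Car12, Hspb8, Atxn1 and Cstdc1, at r from 0.943 to 0.987. Gpnmb, a gene of a membrane glycoprotein, had -0.31, 0.06, 2.38 and 1.18, and Plat, the tissue plasminogen activator gene, had -0.20, -0.46, 2.50 and 1.78. No gene stood in more than 1 of the lists, and an r over 8 arrays of which 2 stand apart is a description only.

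Sbsn, Dmkn and Krtdap are consecutive among the protein-coding genes of the RefSeq table, and the genes beside them were read for comparison. Gapdhs, a sperm glycolysis gene next to Sbsn, had log2 ratios of 0.04, -0.30, 0.19 and -0.12 in the Nanog, Esrrb, 2i and empty vector pairs. Ffar2, a fatty acid receptor gene next to Krtdap among measured genes, had -0.01, 0.17, 0.23 and -0.07. Of the 20 nearest protein-coding genes with a probe set, 10 on each side, over 2-fold higher were 0 in the Nanog, Esrrb and 2i pairs and 1 in the empty vector pair, beside 1.13%, 1.06%, 4.81% and 5.36% of all genes, so the count of neighbours was near that of genes at large. None was over 2-fold lower. The 1 gene was Fxyd5, a membrane protein gene and the ninth measured gene past Krtdap, with 0.06, -0.03, 0.85 and 2.30. The medians over the 20 were -0.03, 0.01, 0.15 and -0.09, beside medians over all genes of -0.01, 0.00, 0.03 and -0.03. Gapdhs and Ffar2 are named for their place and not for their values.

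**Figure D3:**
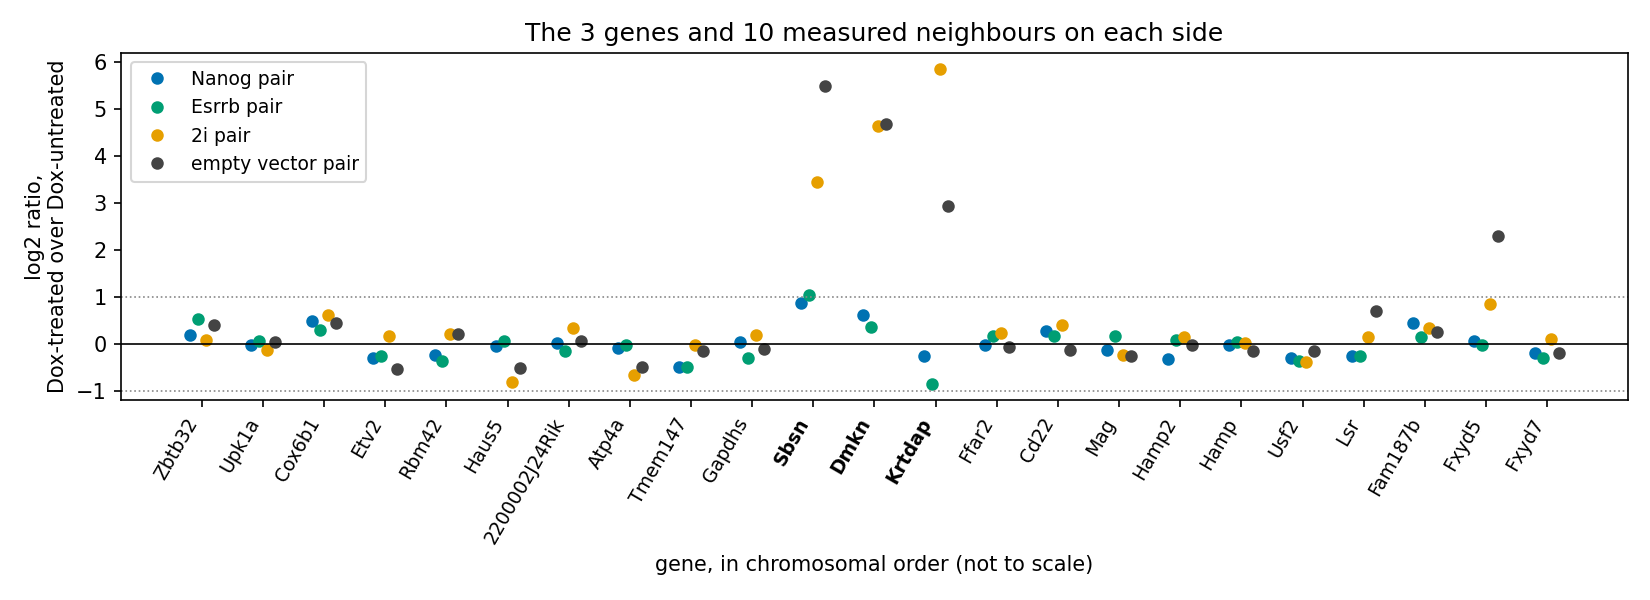
Log2 ratio after Dox (vertical axis) of Sbsn, Dmkn and Krtdap (bold) and of 10 measured protein-coding genes on each side, in chromosomal order and not to scale (horizontal axis), coloured by pair, with dotted lines at 2-fold. Points above 2-fold belong to the 3 genes and, in the empty vector pair, to Fxyd5 at 2.30.

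The wider program of stratified epithelia was followed with 6 lists that together held 169 measured genes besides these 3. Over 2-fold higher were 3 of the 169 for Nanog, 3 for Esrrb, 16 for 2i and 25 for the empty vector, which is 1.78%, 1.78%, 9.47% and 14.8%, beside 1.13%, 1.06%, 4.81% and 5.36% of all genes. Their median log2 ratios were 0.01, 0.00, 0.15 and 0.06, far from those of the 3 genes. In the test of the Nanog and Esrrb pairs 12 of the 169 rose and 16 fell, shares near the 8.49% and 7.52% of all genes.

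Genes of the structural barrier are described list by list, and each count can be read against the shares of all genes just given. Of 17 epidermal keratins, over 2-fold higher were 0 in the Nanog, Esrrb and 2i pairs and 2 in the empty vector pair (11.8%, against 5.36% of all genes). These were Krt15 with 1.68 and Krt13 with 1.38, and other probe sets of Krt13 stood down to 0.28. Krt13 was dim, with log2 signals of 4.70 on the Dox-treated and 3.32 on the Dox-untreated empty vector array. With the filter on dim probe sets 1 keratin was over 2-fold higher. Of 47 cornified envelope genes, whose products are crosslinked under the cell membrane, 0 were in the first 3 pairs and 3 in the empty vector pair (6.38%). These were Ppl with 1.57, Tchh with 1.06 and Tgm1, the envelope's crosslinking enzyme, with 1.03. Tgm1 rose by 0.43 in the test of the Nanog and Esrrb pairs (standard error 0.0974, adjusted p = 0.0108 from limma), and Tchh fell by 0.73 (standard error 0.156, adjusted p = 0.00823 from limma). The log2 signals of Tchh in these pairs were low, between 3.23 and 4.23. Of 28 epidermal proteases and inhibitors, 0 were over 2-fold higher for 2i and 2 for the empty vector (7.14%), Prss8 with 1.58 and St14 with 1.01. Over 2-fold lower were 1 for Nanog, 0 for Esrrb, 1 for 2i and 1 for the empty vector, beside 1.17%, 0.967%, 3.10% and 3.85% of all genes. Each time it was Tmprss13, with ratios of -1.11, -0.70, -1.60 and -1.45 in that order. Tmprss13 fell by 0.91 in the test of the Nanog and Esrrb pairs (standard error 0.159, adjusted p = 0.00295 from limma).

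Of 12 genes of desmosomes, which join epithelial cells, over 2-fold higher were 1 for Nanog, 2 for Esrrb, 2 for 2i and 4 for the empty vector, beside 1.13%, 1.06%, 4.81% and 5.36% of all genes. Perp, a desmosome gene that p53 and p63 activate, had ratios of 1.07, 1.09, 2.57 and 2.66, and rose by 1.08 in the test of the Nanog and Esrrb pairs (standard error 0.0811, adjusted p = 1.06e-05 from limma). Dsp, which encodes desmoplakin, had -0.07, 0.42, 1.20 and 1.91, with other probe sets down to 0.09 for 2i and 0.05 for the empty vector. Of 23 barrier lipid genes, over 2-fold higher were 2 in the 2i and 3 in the empty vector pair, among them Abhd5 with 1.66 and 1.59, whose other probe sets ranged from 0.00 to 2.35 for 2i and from -0.21 to 2.15 for the empty vector. Over 2-fold lower were 3 for Nanog, 2 for Esrrb, 0 for 2i and 4 for the empty vector, beside 1.17%, 0.967%, 3.10% and 3.85% of all genes. Among those lower for the empty vector were Sult2b1 with -1.83 and Elovl7 with -1.77. In the test of the Nanog and Esrrb pairs 2 of the 23 rose and 6 fell, and the share that fell was larger than the 7.52% of all genes. Elovl4, an enzyme gene of very long chain fatty acids, had -0.37 for 2i and -1.61 for the empty vector, and fell by 1.28 in the test of the Nanog and Esrrb pairs (standard error 0.140, adjusted p = 0.000146 from limma).

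The probe sets of Nipal4, a gene of the barrier lipid list that is mutated in a human scaling skin disorder, disagreed most among the listed genes, and it is named after its values were seen. Probe set 1447041_at, which stands for the gene in the counts, had log2 ratios of -0.06 for Nanog, 0.14 for Esrrb, 0.43 for 2i and 0.07 for the empty vector. Probe set 1441909_s_at had log2 signals of 5.48 on the Dox-treated and 3.63 on the Dox-untreated array with forced Nanog, 4.68 and 3.57 with forced Esrrb, 7.60 and 3.57 in the 2i condition, and 8.58 and 3.16 with an empty vector. Its ratios were 1.85, 1.11, 4.03 and 5.42, beside 0.87, 1.05, 3.44 and 5.49 for Sbsn, with all 4 Dox-treated arrays above all Dox-untreated ones. Which of these probe sets reads the gene better was not tested.

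**Figure D4:**
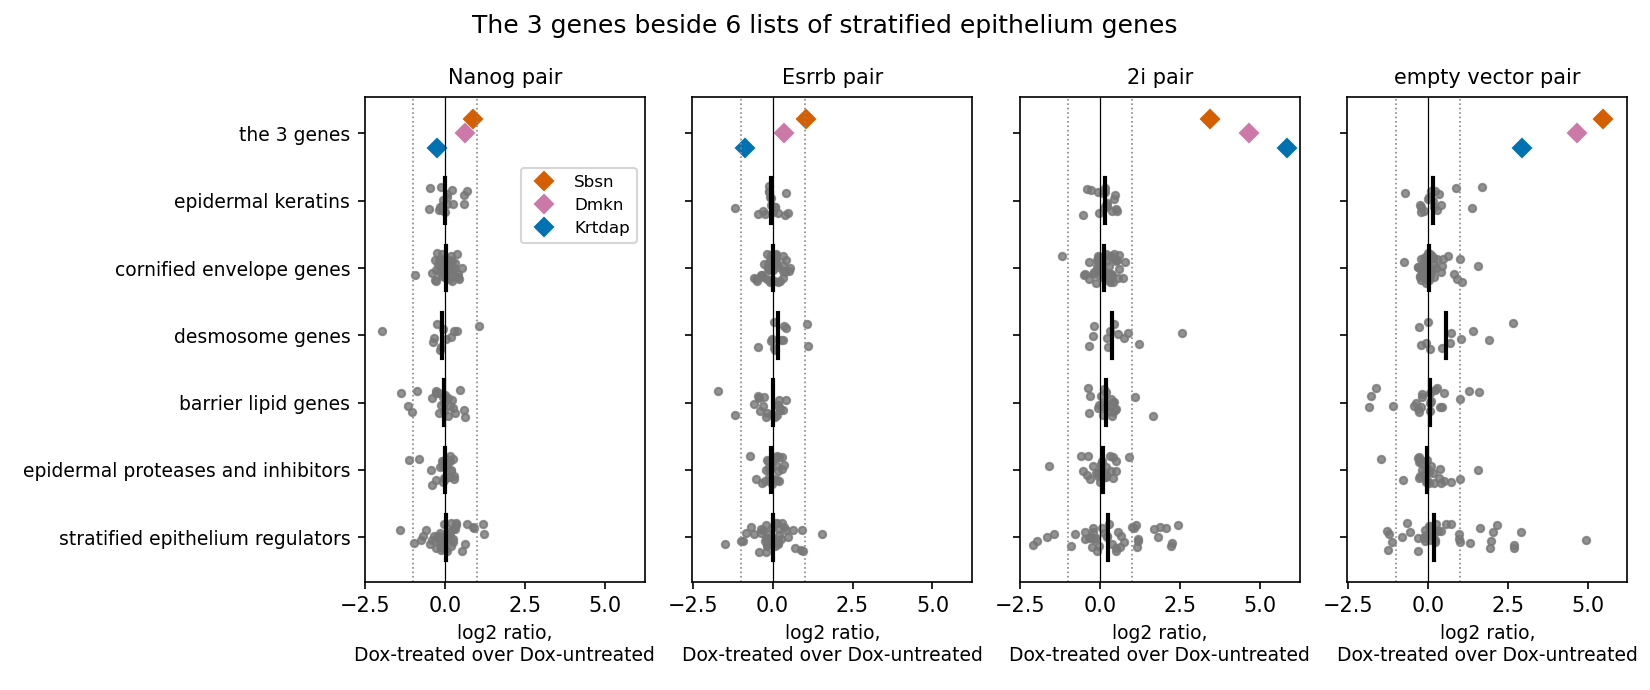
Log2 ratio after Dox (horizontal axis) of Sbsn, Dmkn and Krtdap (diamonds) and of single genes of 6 lists (grey points, spread vertically for legibility; black bars are list medians) in each pair, with dotted lines at 2-fold. In the 2i pair the 3 genes, from 3.44 to 5.85, lie above the ratios plotted for listed genes, each from 1 probe set (another probe set of Nipal4 had 4.03), and in the empty vector pair Ets1, a regulator, reaches 4.94.

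Regulators made up 12 of the 16 listed genes over 2-fold higher for 2i and 11 of the 25 for the empty vector. Some of these regulators, named after their values were seen, also stand on other lists. Gata3 (2.23 for 2i and 1.95 for the empty vector) and Tfap2c (1.20 and 0.98) are also trophoblast markers, and Jun, Fos, Fosl1 and Junb are AP-1 genes. The genes differed in part between these pairs: Pou3f1 had -1.97 for 2i and 1.62 for the empty vector. Of 42 regulators, over 2-fold higher were 2 for Nanog, 1 for Esrrb, 12 for 2i and 11 for the empty vector. These are 4.76%, 2.38%, 28.6% and 26.2%, beside 1.13%, 1.06%, 4.81% and 5.36% of all genes. Over 2-fold lower were 1, 1, 4 and 4, beside 1.17%, 0.967%, 3.10% and 3.85% of all genes. In the test of the Nanog and Esrrb pairs 6 of the 42 rose and 7 fell, larger shares than the 8.49% and 7.52% of all genes. Ets1, a transcription factor gene, had ratios of -0.35, -0.29, 1.67 and 4.94. Its other probe sets ranged from 0.32 to 1.69 in the 2i and from 0.91 to 5.22 in the empty vector pair. Vgll3, a cofactor gene of TEAD factors, had 0.86, 0.89, 1.86 and 2.69 and rose by 0.88 in the test of the Nanog and Esrrb pairs (standard error 0.147, adjusted p = 0.00227 from limma). Named after their values were seen, Zfp750 and Grhl3, transcription factor genes of late epidermal differentiation, had 0.69, 0.64, 2.05 and 1.98, and 0.89, 0.48, 1.81 and 1.32. Both rose in that test, Zfp750 by 0.67 (standard error 0.140, adjusted p = 0.00777 from limma) and Grhl3 by 0.69 (standard error 0.136, adjusted p = 0.00547 from limma). Other regulators of epidermal differentiation, likewise named after their values were seen, had ratios below 0. Grhl1 had -0.99, -0.93, -0.92 and -1.13 and fell by 0.96 in that test (standard error 0.129, adjusted p = 0.000575 from limma), and Prdm1 had -0.46, -0.66, -1.45 and -1.20 and fell by 0.56 (adjusted p = 0.0194 from limma). Hopx, with -0.59, -0.58, -1.68 and -0.81, fell by 0.58 (adjusted p = 0.0094 from limma), and Ovol1 fell by 0.59 (adjusted p = 0.0213 from limma). Klf4, also a pluripotency factor gene, had -0.27, -0.13, -0.25 and -1.23.

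The AP-1 genes are set beside the motif shared by the promoter windows. Jun had log2 signals of 7.58 on the Dox-treated and 7.44 on the Dox-untreated array with forced Nanog, 6.89 and 6.81 with forced Esrrb, 8.96 and 6.53 in the 2i condition, and 9.52 and 6.81 with an empty vector. Its Dox-treated 2i and empty vector arrays stood above the other 6, as for the 3 genes. Fos, named after its values were seen, had another order: its signals were 11.63 and 10.44 with forced Nanog, 12.19 and 11.27 with forced Esrrb, 10.59 and 9.52 in the 2i condition, and 9.34 and 8.35 with an empty vector. Among the Dox-treated arrays it was highest with forced Esrrb and lowest with an empty vector, and it rose by 1.06 in the test of the Nanog and Esrrb pairs (standard error 0.0809, adjusted p = 1.17e-05 from limma). Junb had ratios of 0.61, 0.17, -0.48 and 1.02 in the Nanog, Esrrb, 2i and empty vector pairs. Fosl1 had log2 ratios of 0.04, -0.83, 0.99 and 2.92 in the same order, and its other probe set had 1.60 for the empty vector. Of 13 AP-1 genes, which share members with the regulators, over 2-fold higher were 1 in the Nanog, 0 in the Esrrb, 2 in the 2i and 3 in the empty vector pair, beside 1.13%, 1.06%, 4.81% and 5.36% of all genes. Maff, a small Maf gene, had -0.44, -0.88, -1.57 and -1.10 and fell by 0.66 in the test of the Nanog and Esrrb pairs (standard error 0.140, adjusted p = 0.00819 from limma). Whether AP-1 has a part in the levels of Sbsn, Dmkn or Krtdap was not tested.

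Markers of the cells that these arrays could hold were read in the same way. The keratinocyte genes Krt5, Krt14, Trp63, Krt1 and Ivl, named here after their values were seen, had no ratio beyond 2-fold in these pairs, whereas others of the basal keratinocyte list did. Krt5 of the basal layer had 5.57 on the Dox-treated and 5.14 on the Dox-untreated 2i array and 6.00 and 5.12 on the empty vector arrays. Krt14, its partner, had 4.32 and 4.39 in the 2i condition and 4.57 and 4.37 with an empty vector, and Trp63, the master regulator of stratified epithelia, had 3.85 and 4.07, and 3.83 and 3.92. Krt1 of the suprabasal layers had 4.22 and 4.04, and 4.48 and 4.20, and the envelope precursor gene Ivl had 4.86 and 5.19, and 4.82 and 4.76. Of 12 basal keratinocyte markers, 0, 0, 2 and 5 were over 2-fold higher in the Nanog, Esrrb, 2i and empty vector pairs, beside 1.13%, 1.06%, 4.81% and 5.36% of all genes. In the empty vector pair these were Sfn, whose product 14-3-3 sigma is also a p53 target, with 3.69, the hemidesmosome and anchoring genes Itgb4 with 2.29, Col7a1 with 2.12 and Lamb3 with 1.40, and Krt15 with 1.68. In the 2i pair they were Sfn with 1.13 and Lamb3 with 1.01.

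Of 22 trophoblast markers, 0 were over 2-fold higher in the Nanog and Esrrb pairs, 9 for 2i and 11 for the empty vector, against 4.81% and 5.36% of all genes in the last 2. Among them were the keratins Krt18, Krt8 and Krt7, which other simple epithelia also make. Others were not keratins: Sct had 1.87 for 2i and 3.26 for the empty vector, and Gata3, also a listed regulator, had 2.23 and 1.95. The median log2 signal of the 22 markers was 7.16 on the Dox-treated and 5.87 on the Dox-untreated 2i array, and 7.29 and 6.22 on the empty vector arrays. Krt7 had ratios of 0.50, 0.96, 3.75 and 2.91, above the empty vector in the 2i pair as Krtdap was. Of 16 fibroblast markers, 1, 0, 2 and 1 were over 2-fold higher, beside 1.13%, 1.06%, 4.81% and 5.36% of all genes. The median log2 signal of 18 ESC markers was between 11.73 and 12.12 on the Dox-treated and between 12.18 and 12.41 on the Dox-untreated arrays. Of these 18, over 2-fold lower were 1 for Nanog, 0 for Esrrb, 3 for 2i and 6 for the empty vector, beside 1.17%, 0.967%, 3.10% and 3.85% of all genes. Over 2-fold higher were 0 for Nanog, Esrrb and the empty vector and 2 for 2i (11.1%, against 4.81% of all genes). For the empty vector Tcl1 had -3.27, Nr0b1 -2.30, Klf2 -2.16 and Prdm14 -1.81, and for 2i the same genes had -1.88, -2.30, -0.56 and 0.17. The part of differentiating, trophoblast-like or other cells in the levels of Sbsn, Dmkn and Krtdap was not tested, and in RNA of whole cultures a change in the share of cells that express a gene and a change of its RNA per cell cannot be told apart.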

How the data were processed

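Deposited values of 8 Affymetrix mouse genome arrays were used, 1 per condition. The authors made the log2 signals with the robust multiarray analysis (RMA; affy package of R, versions not given in the sources used here), which subtracts background, quantile-normalizes all arrays together and summarizes probes into probe sets. The log base was read as 2 from the values, which ran from 1.82 to 14.6. Quantile normalization hides a shift of all genes in 1 direction, and ratios of genes near background are compressed. The number of arrays limits the precision. No column was left out: 0 belong to no sample used here. Cells with constitutively active Stat3 are not analysed here.

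Of 45101 probe sets, 34958 had 1 gene symbol in the platform annotation, 932 several and 9211 none here, and 34754 matched RefSeq by Entrez ID. Where a gene had several, the one with the highest mean signal stood for it. Ratios are Dox-treated minus Dox-untreated log2 signals, over 2-fold means beyond 1 or -1, and no test was made within a pair. limma 3.58.1 (R 4.3.3; lmFit and eBayes with a trend) tested the Nanog and Esrrb pairs on 4 arrays with Benjamini-Hochberg adjustment over all genes at 0.05, and was checked on simulated data. Python 3.11.15, numpy 2.4.6, pandas 2.3.3 and matplotlib 3.10.9 did the rest.

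Besides the 3 genes, the genes named are Gnl3, at most 4 per list, those whose empty vector ratios were largest and beyond 2-fold, the 8 genes most correlated with each member, and neighbours beyond 2-fold; others are named for their place, as a check of the labels, or after their values were seen. The 12 lists were written by hand. The members, motifs and lists were chosen with earlier results of these data known, the high ratio of Jun among them. Alternatives were other probe set rules, no trend, a filter on dim probe sets, centring, repeated quantile normalization, all 8 arrays, leaving out a pair, 1.5-fold and 3-fold thresholds, and another Dox-untreated array for the 2i pair.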

Additional observations from a re-analysis of the deposited data

Results flagged for a closer look

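Krtdap was singled out because its ratios after Dox had opposite signs between backgrounds. The log2 ratios were -0.26 for Nanog and -0.86 for Esrrb, against 5.85 for 2i and 2.94 for the empty vector, and the difference was not tested, since the 2i and empty vector pairs chose the gene. The lower signal common to the Nanog and Esrrb pairs did not pass over genes (adjusted p = 0.0551 from limma). It rests on log2 signals of at most 5.40. Of all genes, 5.41% had ratios above 0 in both pairs without a forced factor and below 0 in both with one.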

How the results depend on the processing

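For the Dox response in the Nanog and Esrrb pairs, limma called 2914 genes. It called 167 with all 8 arrays, 1152 with no trend, 1131 with the mean of the probe sets of a gene and 6461 of 45101 probe sets, and the number stayed within 1.5 times with the filter on dim probe sets, centring and repeated quantile normalization. Sbsn kept 0.96 with all 8 arrays but no longer passed, and its probe set 1459898_at, at 0.19, did not pass (adjusted p = 0.524 from limma). The lowest adjusted p for Sbsn, 4.41e-05 from limma, belonged to another probe set, 1459897_a_at. Krtdap at -0.56 passed only when every probe set was tested (adjusted p = 0.0484 from limma, against 0.0551 over genes and 0.0553 to 0.706 under the other settings). Dmkn passed under none of these settings, with an adjusted p from 0.0546 to 0.185 from limma. With 1 pair left out no test is possible, and the ratio of the remaining pair was 0.87 to 1.05 for Sbsn, 0.36 to 0.63 for Dmkn and -0.86 to -0.26 for Krtdap. The response was estimated within pairs throughout, so no further paired fit was made.

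As a stand-in for replicates, the SD of each gene over the 4 Dox-untreated arrays was used to judge the ratios. By it the ratio of Sbsn moved with the mean of its probe sets, to 2.83 in the 2i and 4.63 in the empty vector pair, and with the empty vector Dox-untreated array as reference the 2i ratios moved to 4.18 for Sbsn and 5.40 for Dmkn. Of the 169 stratified epithelium genes, 10, 8, 27 and 35 were higher at 1.5-fold in the Nanog, Esrrb, 2i and empty vector pairs. At 3-fold they numbered 0, 0, 9 and 13 in the same order. Shares of all genes at these thresholds are not given here, so these counts cannot be set against genes at large. With the empty vector Dox-untreated array as 2i reference, an alternative chosen after seeing the data, 15 rather than 16 of these genes were over 2-fold higher. No direction turned. Signal near background limits the ratios of Dmkn, Krtdap and 1459898_at, whose Dox-untreated signals were at most 5.40. It also limits those of dim listed genes, among them Krt13 and Tchh.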
